A study of Homo sapiens with 6 samples.

Results

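Metallothioneins are small cysteine-rich proteins that bind zinc, copper and cadmium, and the gene set described here was the 6 family members MT1E, MT1F, MT1G, MT1M, MT1X and MT2A. They were taken by gene symbol from a table of 58735 genes. The libraries came from PC9-BrM3 cells, which were selected from the lung adenocarcinoma line PC9 for growth in the brain by repeated injection into the left ventricle of immunodeficient mice. RNA-seq was available for 3 libraries in which AKR1B10, an aldo-keto reductase, was silenced by a lentiviral shRNA (BrM3-shAKR1B10) and 3 libraries with a negative control shRNA (BrM3-shNC, whose genotype the labels give as WT). All cells were in routine culture and carried a lentiviral vector, 1 shRNA sequence stood for the knockdown, and the comparison asked which transcripts differed when AKR1B10 was reduced. Nothing in the labels says that the libraries of a group came from separate cultures, so the p-values measure the spread between these samples, which may be technical.

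Metallothioneins hold metals in clusters formed with their cysteine thiols, and in this way buffer free zinc and scavenge toxic metals and some oxidants. Their genes lie side by side on chromosome 16 and are switched on when zinc activates the transcription factor MTF1, which binds short metal response elements in their promoters. MT2A and MT1X are broadly expressed in epithelial cells, and glucocorticoids are also known inducers of MT2A.

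The coding sequences show how close the members are, which matters for telling their reads apart. In the GENCODE 29 annotation the principal transcript of each of the 6 members had 3 exons and 61 codons before the stop, of which 20 were cysteine codons. The sequence of MT2A is printed with its cysteine codons in capitals, and those of MT1X and MT1F, the other members with reads, with the bases that differ from MT2A in capitals, each in the coding direction and spliced from the plus strand of chromosome 16.
MT2A: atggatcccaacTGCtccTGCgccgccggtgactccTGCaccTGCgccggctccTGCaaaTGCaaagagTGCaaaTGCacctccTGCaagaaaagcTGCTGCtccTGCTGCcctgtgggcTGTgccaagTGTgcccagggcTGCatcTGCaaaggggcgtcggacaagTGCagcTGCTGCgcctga
MT1X: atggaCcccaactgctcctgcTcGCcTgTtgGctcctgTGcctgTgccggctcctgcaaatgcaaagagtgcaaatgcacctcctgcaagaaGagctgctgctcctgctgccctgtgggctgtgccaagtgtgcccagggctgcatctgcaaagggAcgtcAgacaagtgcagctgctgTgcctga
MT1F: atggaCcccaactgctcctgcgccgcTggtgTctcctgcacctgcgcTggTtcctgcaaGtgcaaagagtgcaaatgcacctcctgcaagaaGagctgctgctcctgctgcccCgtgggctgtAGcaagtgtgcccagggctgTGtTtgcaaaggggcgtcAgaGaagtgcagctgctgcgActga
Identity between the coding sequences ranged from 88.7% to 95.2% over the 15 pairs of members. Despite this, every 150-base stretch of the annotated transcripts of MT2A, MT1F, MT1E, MT1M and MT1G occurred in no other annotated gene, when only exact matches to transcripts were counted. For MT1X this held for 91.4% of the stretches, and the rest were shared with AC026461.1, which had no read in any library.

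Reads on genes numbered between 16964504 and 18709028 per library, and 13150 genes with a mean of at least 1 FPKM (fragments per kilobase of gene, scaled to library size) were tested with limma on log2(FPKM + 0.1). A gene was called at a Benjamini-Hochberg adjusted p under 0.05 and a log2 fold change beyond 0.5 in size. AKR1B10 stood at 108, 107 and 110 FPKM in the BrM3-shAKR1B10 libraries against 799, 775 and 772 FPKM in the BrM3-shNC libraries. The summed level of 5 epithelial markers was 2708 to 2771 FPKM in BrM3-shAKR1B10 and 2483 to 2783 FPKM in BrM3-shNC. Limma called none of these 5. An adjusted p under 0.05 was reached by EPCAM, which was lower (log2 fold change −0.24), and by CDH1, which was higher (0.16). Of all genes tested, 23.1% reached it with lower and 19.4% with higher values. Of 6 markers of other cell types only COL1A1 was tested, LYZ had no read, and their summed level was 1.51 to 1.65 FPKM against 2.43 to 2.56 FPKM. COL1A1, a fibrillar collagen chain, was lower by limma (log2 fold change −0.67, SE 0.107, adjusted p = 0.00319), and the part of these markers in the metallothionein values was not tested.

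MT2A had the most metallothionein reads in these cells (88.8% to 93.7% per library), MT1X and MT1F were present at low levels, and MT1E, MT1M and MT1G were not detected. After AKR1B10 knockdown MT1X fell to 51.2% of its control level, and it was the 1 member called among the 3 that could be tested. In all genes tested, 7.45% were called lower and 5.83% were called higher in BrM3-shAKR1B10. These were 980 and 766 genes, and the balance turned to 873 lower and 902 higher with TPM and to 851 lower and 984 higher with voom on recovered reads. MT2A and MT1F stood at 89.3% and 72.7% of their control means, and neither was called.

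**Figure D1:**
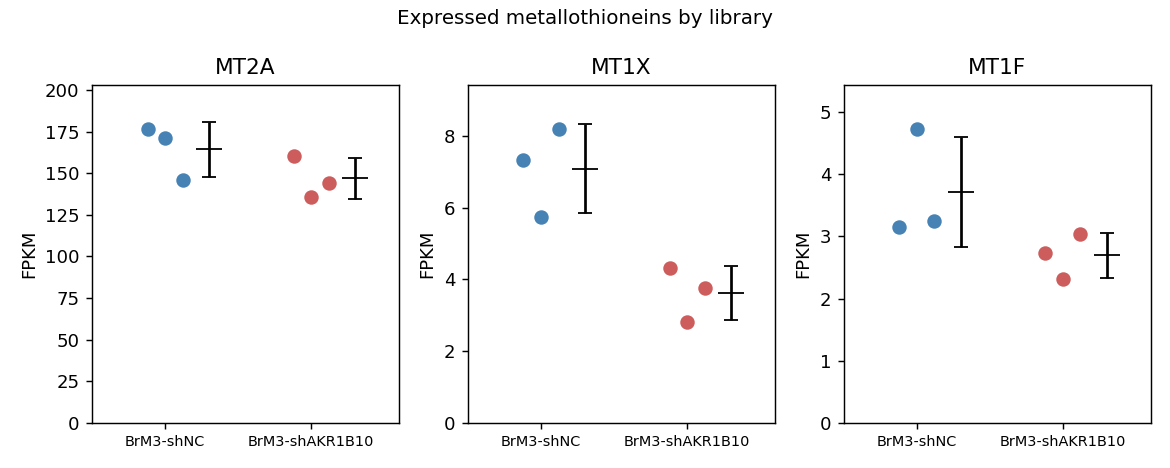
FPKM of MT2A, MT1X and MT1F in each library (points) with the group mean and SD (black, n = 3 per group) and each vertical axis starting at 0. The MT1X points of the groups are separate, with a gap narrower than the range within either group, those of MT1F lie closer without overlapping, and those of MT2A overlap.

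MT1X (ENSG00000187193, chromosome 16, 56682424 to 56684196, plus strand) encodes a metal-binding isoform of the MT1 subgroup. Its level was 4.31, 2.81 and 3.75 FPKM in BrM3-shAKR1B10 and 7.32, 5.74 and 8.19 FPKM in BrM3-shNC. All the knockdown libraries were below all the control libraries, and the gap between the groups was narrower than the range within either group. The means were 3.62 ± 0.757 and 7.08 ± 1.24 FPKM (SD, n = 3), a log2 fold change of −0.95 (SE 0.184, 95% interval −1.39 to −0.51) with a limma adjusted p of 0.00677. By fold change it was the 273rd lowest of the 13150 genes tested. An exact two-sided permutation test of its log2 level gave p = 0.1, the smallest value that 3 against 3 libraries can give.

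The MT1X values rested on 135, 90 and 118 reads in BrM3-shAKR1B10 and on 238, 172 and 265 reads in BrM3-shNC. Counting error alone would give a coefficient of variation of 9.35% and 6.67% in these groups, and the observed coefficients were 20.9% and 17.6%. The libraries of a group thus differed by more than counting error, which says nothing about the difference between the groups. MT1X was not called when a log2 fold change beyond 1 was required.

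MT1F (ENSG00000198417, chromosome 16, 56657694 to 56660698, plus strand) encodes another MT1 isoform. Its level was 2.73, 2.32 and 3.04 FPKM in BrM3-shAKR1B10 and 3.14, 4.73 and 3.25 FPKM in BrM3-shNC, from 79 to 102 and 109 to 151 reads. The groups did not overlap, but the highest knockdown library came close to the lowest control library, and the control mean was raised by replicate 2. The means were 2.70 ± 0.365 and 3.71 ± 0.885 FPKM (SD, n = 3), and the log2 fold change was −0.43 (SE 0.175, 95% interval −0.85 to −0.01, limma adjusted p = 0.0908). Without BrM3-shNC replicate 2 the log2 fold change was −0.25. An exact two-sided permutation test gave p = 0.1. Of the 3 members tested, MT1X and MT1F had lower, non-overlapping values in BrM3-shAKR1B10, as did 29.2% of all genes tested.

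MT2A (ENSG00000125148, chromosome 16, 56608199 to 56609497, plus strand) encodes the most widely expressed metallothionein. Its level was 160.5, 135.8 and 144.2 FPKM in BrM3-shAKR1B10 and 176.5, 171.3 and 145.6 FPKM in BrM3-shNC, from 3185 to 4208 reads per library. The groups overlapped, because control replicate 3 lay among the knockdown libraries. The means were 146.8 ± 12.5 and 164.5 ± 16.5 FPKM (SD, n = 3), and the log2 fold change was −0.16 (SE 0.0899, 95% interval −0.38 to 0.05, limma adjusted p = 0.193). An exact two-sided permutation test gave p = 0.2. The interval holds both no change and a decrease, so that a small decrease could not be told from none. Counting error alone would give a coefficient of variation of 1.72% and 1.62% in the groups, against 8.53% and 10.1% observed. The source of the remaining spread was not tested. Without BrM3-shNC replicate 3 the log2 fold change was −0.25 with a limma adjusted p of 0.0461, still inside the fold threshold.

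MT1E (ENSG00000169715, chromosome 16, 56625475 to 56627112, plus strand), MT1M (ENSG00000205364, 56632233 to 56633986, plus strand) and MT1G (ENSG00000125144, 56666731 to 56668065, minus strand) encode further MT1 isoforms. None of the 3 had a read in any of the 6 libraries, so no fold change can be given. A count of 0 allows up to 3 reads per library, which for MT1E is a level of 0.155 to 0.169 FPKM, for MT1M 0.174 to 0.188 FPKM and for MT1G 0.218 to 0.237 FPKM. These limits cover counting error only, and how the counting treated reads that map to several places is not given in the sources used here. Of all protein-coding genes in the table, 17% had no read in any library. In every library the level of MT2A was at least 860-fold higher than this limit for MT1E, at least 770-fold higher than that for MT1M and at least 613-fold higher than that for MT1G. Even MT1F, the lowest member with reads, was at least 14.7-fold, 13.1-fold and 10.5-fold higher than the limits for MT1E, MT1M and MT1G.

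**Figure D2:**
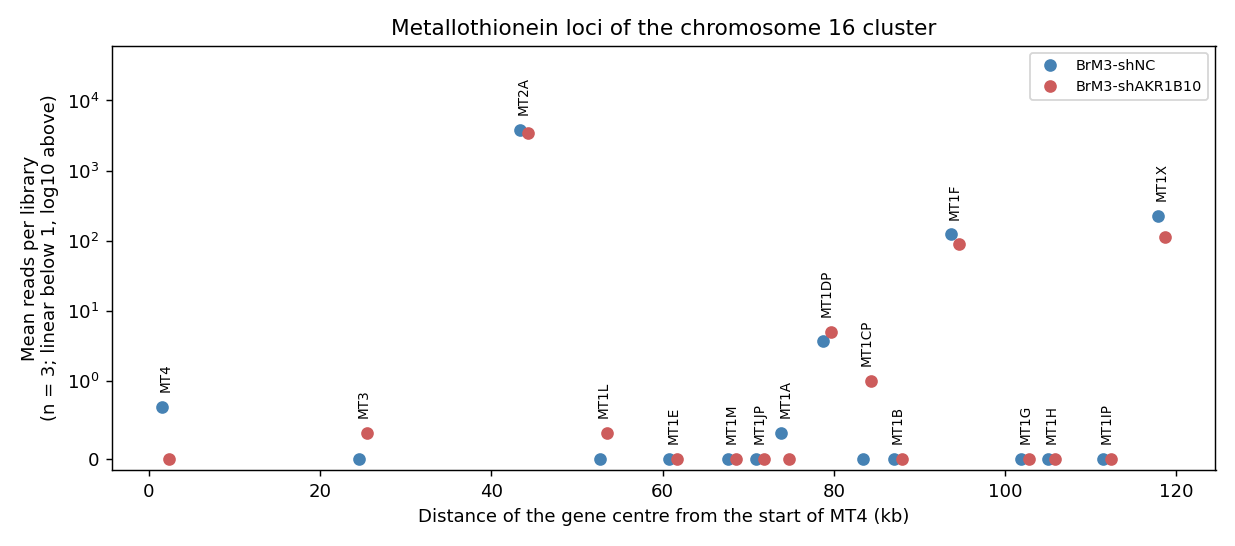
Mean reads per library (n = 3 per group, vertical scale linear below 1 and log10 above) of each metallothionein locus on chromosome 16, against the distance of the gene's centre from the start of MT4 in kilobases. MT2A, MT1F and MT1X stand above the neighbouring loci, and MT1E, MT1M and MT1G lie at 0 between them.

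The expressed members were not neighbours of one another. The cluster ran from MT4 to MT1X (chromosome 16, 56565049 to 56684196), with MT2A behind MT4 and MT3, MT1X at the far end, and the undetected MT1E, MT1M and MT1G between MT2A and MT1X. The table held 21 metallothionein loci, 12 protein-coding and 9 pseudogenes. Of the 6 protein-coding loci outside the set, MT1B, MT1H and MT1HL1 had no read, and MT1A, MT3 and MT4 (MT3 being the brain-enriched isoform) had at most 2 reads in any library.

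Of the reads on all these loci MT1X took 2.65% to 6.82% and MT1F 2.30% to 3.67%. The share of MT1X was lower in each BrM3-shAKR1B10 library than in any BrM3-shNC library, whereas the shares of MT1F overlapped. The 21 loci together held 3648 ± 279 reads in BrM3-shAKR1B10 and 4208 ± 377 reads in BrM3-shNC (SD, n = 3). Scaled to 1000000 reads on genes these were 209 ± 18.4 and 233 ± 20.1, and the groups overlapped because BrM3-shNC replicate 3 (210) lay among the knockdown libraries.

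Per length, MT2A was the highest member in every library and ranked 191st by mean FPKM among the 13150 genes tested. The level of MT2A was 41.3 ± 6.07 times that of MT1X in BrM3-shAKR1B10 and 23.9 ± 6.04 times in BrM3-shNC (mean of FPKM ratios within libraries, SD, n = 3). The levels of MT1X and MT1F did not overlap in BrM3-shNC, with MT1X higher, but overlapped in BrM3-shAKR1B10. These levels use the gene lengths of the table, which for MT1X (1773 bases) and MT1F (1889 bases) exceed the principal transcripts of 450 and 690 bases, while MT2A has 1299 against 786. With principal transcript lengths, an alternative chosen after the data were seen, the level of MT2A was 17.3 and 10.0 times that of MT1X in the respective groups, and the order of the members' means was the same, but MT1X then lay above MT1F without overlap in both groups.

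Whether MT1X changed more than its relatives was asked through log2 ratios of FPKM + 0.1 within each library. The log2 ratio of MT1X to MT2A was −5.19, −5.54 and −5.23 in BrM3-shAKR1B10 and −4.57, −4.88 and −4.14 in BrM3-shNC. The groups did not overlap, and the difference of −0.79 had an exact permutation p of 0.1, and with a pseudocount of 1 the difference was −0.65. For MT1F to MT2A the difference was −0.27 (exact permutation p = 0.2), and for MT1X to MT1F it was −0.52 (exact permutation p = 0.3). Adjusted over these 3 pairs, the exact permutation p was 0.3 for each, so that no pair was shown to differ in its change, in a design that cannot pass this correction.

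The processed pseudogene MT2P1 on chromosome 4 (68376323 to 68376505) was 97.3% identical to the coding sequence of MT2A, with 178 of 183 bases shared. It had 32, 36 and 35 reads in BrM3-shAKR1B10 and 57, 27 and 51 reads in BrM3-shNC, and its groups overlapped. Its log2 fold change was −0.32 (limma adjusted p = 0.315), but without BrM3-shNC replicate 2 it was −0.61 with a limma adjusted p of 0.00224, which would be a call. Reads on MT2P1 amounted to 0.718% to 1.48% of those on MT2A, and whether they came from MT2A transcripts was not tested. Of the other pseudogenes only MT1DP was tested, with 1 to 6 reads per library and a log2 fold change of 0.65 (SE 0.524, limma adjusted p = 0.355). Leaving out each library in turn gave 0.02 to 0.97 for MT1DP, the lowest without BrM3-shNC replicate 2, where it had 1 read.

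Few of the genes that regulate metallothioneins or share their metals were called. MTF1, the zinc-sensing activator of the family, was at 5.31, 5.17 and 5.34 FPKM in BrM3-shAKR1B10 and 5.20, 5.23 and 5.26 FPKM in BrM3-shNC. These values overlapped, with a log2 fold change of 0.01 (95% interval −0.09 to 0.11, limma adjusted p = 0.845). Of MTF1 and 4 other known targets, 5 of 5 were tested, 0 were lower and 1 was higher by limma (7.45% and 5.83% of all genes), with a median log2 fold change of 0.09 against −0.01 for all genes tested. The higher gene was GCLC, the catalytic subunit of glutamate-cysteine ligase in glutathione synthesis, at 0.54 (SE 0.0341, limma adjusted p = 7.2e-05). SLC30A1, which exports zinc from the cell, was at 11.7, 13.4 and 12.3 FPKM in BrM3-shAKR1B10 and 9.07, 8.89 and 8.70 FPKM in BrM3-shNC. Its groups did not overlap, and its log2 fold change of 0.48 (limma adjusted p = 8.63e-04) lay just inside the fold threshold, opposite in sign to that of MT1X. With voom on recovered reads, among other alternatives, it was called at 0.53. Of the 5 genes 2 had an unadjusted p under 0.05 (51.1% of all genes), 0 lower and 2 higher passed the adjusted p alone (23.1% and 19.4% of all genes), and voom called the same 2, GCLC and SLC30A1.

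For the zinc and copper lists the counts are also given for an adjusted p under 0.05 whatever the fold. Of all genes tested, 23.1% passed this with lower and 19.4% with higher values. An unadjusted p under 0.05 was reached by 51.1% of all genes tested. Among 11 zinc exporters (the SLC30 family and TMEM163), 5 were tested and limma called none, 4 had an unadjusted p under 0.05, and 1 lower and 3 higher genes passed the adjusted p alone. Their median log2 fold change was 0.26, and voom called only SLC30A1. Among 14 zinc importers of the SLC39 family, 11 were tested and limma called none, 6 had an unadjusted p under 0.05, and 3 lower and 3 higher genes passed the adjusted p alone. The importers' values ran from −0.50 for SLC39A8, an importer that also carries cadmium and manganese, to 0.48 for SLC39A13, a zinc carrier of the early secretory pathway and the 1 importer that voom called. Among 11 copper handling genes 8 were tested and limma and voom called none, 6 had an unadjusted p under 0.05, and 2 lower and 3 higher genes passed the adjusted p alone. The medians of importers (−0.02) and copper genes (−0.00) lay near that of all genes.

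**Figure D3:**
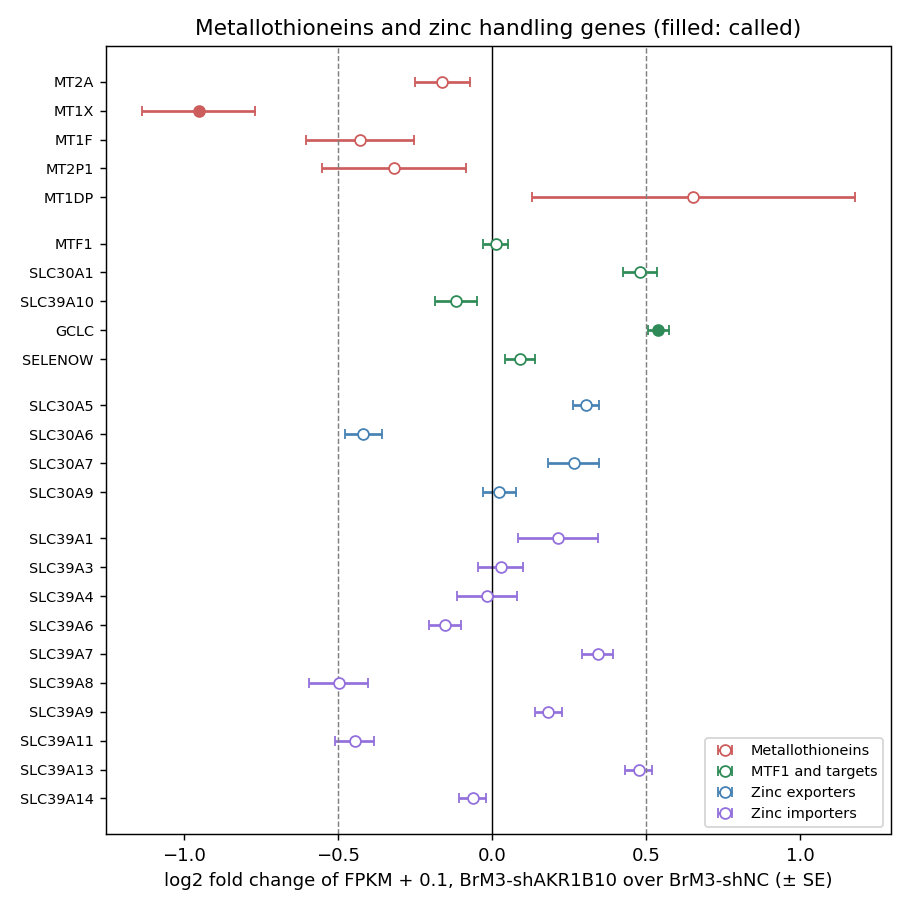
Log2 fold change of FPKM + 0.1 (BrM3-shAKR1B10 over BrM3-shNC, 3 libraries each) with its SE for tested metallothionein loci, MTF1 and its targets, and zinc exporters and importers, each gene drawn once. Filled points are called, dashed lines mark ±0.5, and MT1X stands at −0.95 while MTF1 stands at 0.01.

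Other inducers of metallothioneins were read through genes they are known to act on. Of 8 genes of the glucocorticoid receptor and its targets 5 were tested, of which limma called 1 lower and 1 higher (7.45% and 5.83% of all genes). FKBP5, a chaperone of the receptor and one of its targets, fell (log2 fold change −1.05, SE 0.0612, limma adjusted p = 5.48e-05). TSC22D3, another target and an anti-inflammatory mediator, rose (0.92, SE 0.0955, limma adjusted p = 5.16e-04). The list thus held a member called in each direction, and its median was −0.47. Voom also called DUSP1, a phosphatase of MAP kinases, as higher. All 5 had an unadjusted p under 0.05, and 3 lower and 1 higher genes passed the adjusted p alone, against 51.1% of all genes at the unadjusted p and 23.1% lower and 19.4% higher at the adjusted p. Of 10 genes of the heavy-metal and electrophile response all 10 were tested, with a median log2 fold change of −0.20. Limma and voom each called 1 lower and 1 higher, where limma called 7.45% of all genes lower and 5.83% higher. Of these 10 genes 9 had an unadjusted p under 0.05 (51.1% of all genes). By adjusted p alone 6 lower and 2 higher genes passed (23.1% and 19.4% of all genes). HMOX1, which degrades haem, rose by a log2 fold change of 1.28 (SE 0.101, limma adjusted p = 1.66e-04), and SRXN1, which repairs oxidised peroxiredoxins, was lower (−0.68, SE 0.119, limma adjusted p = 0.00457).

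The promoters of MT2A and MT1X are shown because MTF1 acts through such sequences. Of the 6 members only these 2 had a promoter entry in the sources used here, so the others were not examined. Each line gives the 250 bases before the RefSeq start (GRCh38.p14, plus strand, 5′ to 3′), with capitals marking matches on either strand to the metal response element core, TGCACNC or TGCGCNC.
MT2A, chr16:56608334-56608583: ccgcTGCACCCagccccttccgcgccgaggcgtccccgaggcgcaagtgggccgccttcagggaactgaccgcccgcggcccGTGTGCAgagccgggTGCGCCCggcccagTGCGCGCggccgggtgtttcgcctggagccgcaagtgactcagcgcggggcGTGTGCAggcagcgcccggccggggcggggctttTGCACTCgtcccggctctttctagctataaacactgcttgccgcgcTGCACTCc
MT1X, chr16:56682220-56682469: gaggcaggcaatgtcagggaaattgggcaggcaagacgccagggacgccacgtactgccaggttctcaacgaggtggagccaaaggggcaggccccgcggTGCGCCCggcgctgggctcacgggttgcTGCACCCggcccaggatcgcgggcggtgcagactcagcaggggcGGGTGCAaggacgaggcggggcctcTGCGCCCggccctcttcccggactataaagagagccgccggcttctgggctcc
The window of MT2A held 7 matches, 5 forward and 2 reverse, and that of MT1X held 4, 3 forward and 1 reverse. At least 1 match was present in 24.8% of all 35116 promoter windows of this length, and 4 or more in 0.370%. Each of the 2 windows also held 1 match to the antioxidant response element core TGACNNNGC (10.9% of windows) and 1 to the TATA box TATAAA (10.7%), none overlapping the capitals. MT1H, without a read in any library, had 8 metal response element matches in its window, and MT1B, also without a read, and MT4, with at most 2 reads in any library, had 3 each. The RefSeq start of MT2A lies 385 bases inside the GENCODE 29 gene, so its window is upstream of the transcript by RefSeq but within the gene by GENCODE. The RefSeq start of MT1X lies 46 bases inside its GENCODE 29 gene, which the last 46 bases of its window overlap.

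Protein-coding genes within 500 kb of the cluster were read beside it. Of 12 such genes 9 were tested, of which 2 were lower and 1 was higher, with a median log2 fold change of −0.12. The lower genes were CPNE2, a calcium-dependent membrane-binding copine (−0.78, SE 0.0374, limma adjusted p = 2.75e-05), and NLRC5, an activator of MHC class I genes (−0.60, SE 0.127, limma adjusted p = 0.00941). HERPUD1, a component of endoplasmic reticulum-associated degradation, was higher (0.60, SE 0.0609, limma adjusted p = 4.69e-04). By adjusted p alone 4 lower and 3 higher of the 9 passed, against 23.1% and 19.4% of all genes tested, and calls in both directions were also made over the whole table (7.45% lower and 5.83% higher).

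The genes whose levels ran most like each member were found by the root mean square difference of centred log2 levels over the 6 libraries, without a test. Genes chosen in this way share the member's difference between the groups by construction, so whether they were called is not a separate result. For MT1X these were BLOC1S1, a subunit of a lysosome-related organelle complex (0.127), AC005034.3 (0.138) and IL11, a cytokine (0.162), and all of them were called lower. For MT1F they were CLDND2 (0.0917), ETV2 (0.102) and FUT2, a fucosyltransferase (0.107), and for MT2A they were NDUFC1, a subunit of respiratory complex I (0.0330), DRICH1 (0.0408) and SETD9 (0.0435), none of which was called.

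Under 17 alternative settings the log2 fold changes of MT1X, MT1F and MT2A stayed below 0 wherever the gene was tested. MT1X kept a limma adjusted p between 1.85e-04 and 0.0233, that of MT1F lay between 0.0739 and 0.230, and that of MT2A lay between 0.0461 and 0.432.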

How the data were processed

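Poly-A RNA of 6 PC9-BrM3 samples was sequenced after selection of cDNA fragments of 370 to 420 bp. Per the submitters' processing notes the authors used HISAT2 2.0.5 and featureCounts 1.5.0-p3. The authors deposited FPKM values for 58735 genes, which already include a median-of-ratios scaling between libraries. The genome build, the use of strand in counting and the treatment of reads that map to several places are not given in the sources used here. The gene identifiers, positions and strands are those of GENCODE 29 (GRCh38) for all 58735 genes.

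Whole reads were recovered from FPKM and gene length for 100% of values, within a tolerance of 0.02. Genes with a mean of at least 1 FPKM were compared with limma 3.58.1 in R 4.3.3 on log2(FPKM + 0.1), with eBayes and a mean-variance trend. Fold changes on this scale understate those of low genes. The authors' own test ran on counts with DESeq2, which was not repeated here. As a count-based alternative, voom was run on these recovered whole numbers. The scripts were tested on simulated data. Other settings changed the pseudocount, the filter, the scaling, the moderation, the fold threshold, the replicate block and the libraries included. Replicate numbers did not pair the libraries (correlations of deviations −0.0155, 0.00388 and 0.00383).

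The named genes are the members, every other metallothionein locus, MTF1, AKR1B10, called genes of the other lists and of the neighbours, and the 3 genes most like each tested member. SLC30A1, SLC39A8, SLC39A13, DUSP1, EPCAM and CDH1 were named after their values were seen. Members and lists were chosen with earlier results of these data known. Python 3.11.15 was used for the remaining steps.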

Additional observations from a re-analysis of the deposited data

How the results depend on the processing

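MT1X was lower under every alternative run, and the call was lost only where a log2 fold change beyond 1 was required (log2 fold change −0.95, 0 members called). That threshold left 205 genes lower and 168 higher, against 980 and 766. A filter at a mean of 5 FPKM, which MT1F did not pass, left 532 lower and 290 higher. A pseudocount of 1 left 708 lower and 497 higher. Leaving out each library in turn gave 947 to 971 genes lower, 656 to 759 higher, and log2 fold changes of −1.09 to −0.79 for MT1X. TPM gave 873 lower and 902 higher, and voom on recovered reads 851 and 984. With the replicate block, whose numbers did not pair the libraries, 967 genes were lower and 719 higher, and MT1X was at −0.95 (limma adjusted p = 0.00303). The median log2 fold change of all genes moved by less than 0.1 under each scaling. COL1A1 (−0.43) and NLRC5 (−0.36) lost their calls with a pseudocount of 1. SRXN1, GCLC, TSC22D3, COL1A1, HERPUD1, CPNE2 and NLRC5 lost theirs, with MT1X, where a log2 fold change beyond 1 was required. SLC30A1 passed the fold threshold under 4 alternatives, which were TPM (0.52), quantile scaling (0.52), voom on recovered reads (0.53) and without BrM3-shAKR1B10 replicate 1 (0.52). With principal transcript lengths the level of MT2A was 33.2 and 27.6 times that of MT1F in BrM3-shAKR1B10 and BrM3-shNC, against 55.0 and 45.7 with the table's lengths, and MT1X was 1.93 and 2.91 times MT1F, against 1.34 and 2.02. MT1E, MT1M and MT1G had no read in any library, and the part of depth in this was not tested. The values of MT1DP rested on 1 to 6 reads per library.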
